A study of Homo sapiens with 4 samples.

Results

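The zinc finger genes of chromosome 19 were taken as the protein-coding genes of that chromosome whose symbol is ZNF followed by a number. Name and place alone chose them, in the GENCODE release 44 annotation on hg19 (GRCh37). There were 246 such genes among 20090 protein-coding genes with a symbol of their own, and among the 1471 measured genes of chromosome 19. The histone variant macroH2A1 was mapped by ChIP-seq, the sequencing of DNA precipitated with an antibody to a chromatin protein, in IMR90, a line of human fetal lung fibroblasts. All 4 samples came from this line with no treatment or genetic change named in the labels: 2 ChIP replicates, described as biological replicates, and 2 inputs. Each ChIP replicate had its own genome segmentation, in which every segment carries a log2 ratio of ChIP over input. The files hold no read counts and no expression, so the depth is unknown and the identity of the cells was not checked against fibroblast markers.

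MacroH2A1 is a form of histone H2A with a large extra macro domain. It forms broad domains and is best known from repressed chromatin such as the inactive X chromosome. The ZNF genes encode proteins with arrays of C2H2 fingers, each finger a small fold held by zinc that reads a few bases of DNA. Most of the proteins on chromosome 19 also carry a KRAB domain, which binds TRIM28 and through it brings in the histone methyltransferase SETDB1 and heterochromatin proteins. Many of their known targets are transposable elements. The genes arose by tandem duplication and lie in long clusters of close copies.

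MacroH2A1 was low over nearly all of these genes. The value of a gene was the mean log2 ratio over its annotated span, weighted by bases, in each replicate. All 246 genes had at least 50% of their span assayed in both replicates, the minimum for a gene to be measured. The lowest assayed share was 78.4%, and 164 genes were assayed in full. The median over the 246 genes was -1.65 in replicate 1 and -1.64 in replicate 2, and -1.66 ± 0.01 for the mean of the replicates (SD of the replicate medians, n = 2). Values ran from -3.13 for ZNF579 to 0.92 for ZNF541, and the interquartile range of the genes was -1.89 to -1.34. The log2 ratio was below 0 in both replicates for 242 of the 246 genes, against 69.7% of all measured protein-coding genes and 74.8% of those on chromosome 19. It was below -1 in both replicates for 198 genes, against 42.3% of all genes and 53.7% of those on chromosome 19. Values below -2 in both replicates were found for 10 of the 246 genes, against 12.2% of all genes and 19.1% on chromosome 19. The ZNF genes were thus gathered in a band of moderately low values and were not the lowest genes of the chromosome.

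Enriched sequence was almost missing from them. Enriched segments were those with a log2 ratio over 0 and a −log10 p of 2 or more. A base was covered when both replicates had it in such a segment, and a gene's covered share is given as a percent of its assayed bases. A covered share of at least 50% was reached by 2 of the 246 genes, ZNF541 and ZNF114, against 19.2% of all measured genes and 16.1% of those on chromosome 19. Any covered base at all was found in 4 genes, against 30.5% of all genes and 22.7% on chromosome 19. The log2 ratio was above 0 in both replicates for 3 genes, against 22.8% of all genes and 18.9% on chromosome 19. The mean covered share over the 246 genes was 0.937%, and it was 19.9% over all measured genes. The nearest sequence enriched in both replicates lay at a median distance of 352 kb from the gene, against 5.22 kb over all measured genes and 7.95 kb over the other genes of chromosome 19. It was more than 100 kb away from 191 of the 246 genes, against 19% of all genes and 28.8% of those on chromosome 19. Of the 191, 36 belong to the cluster beside the centromere, and without that cluster the median was 282 kb.

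**Figure D1:**
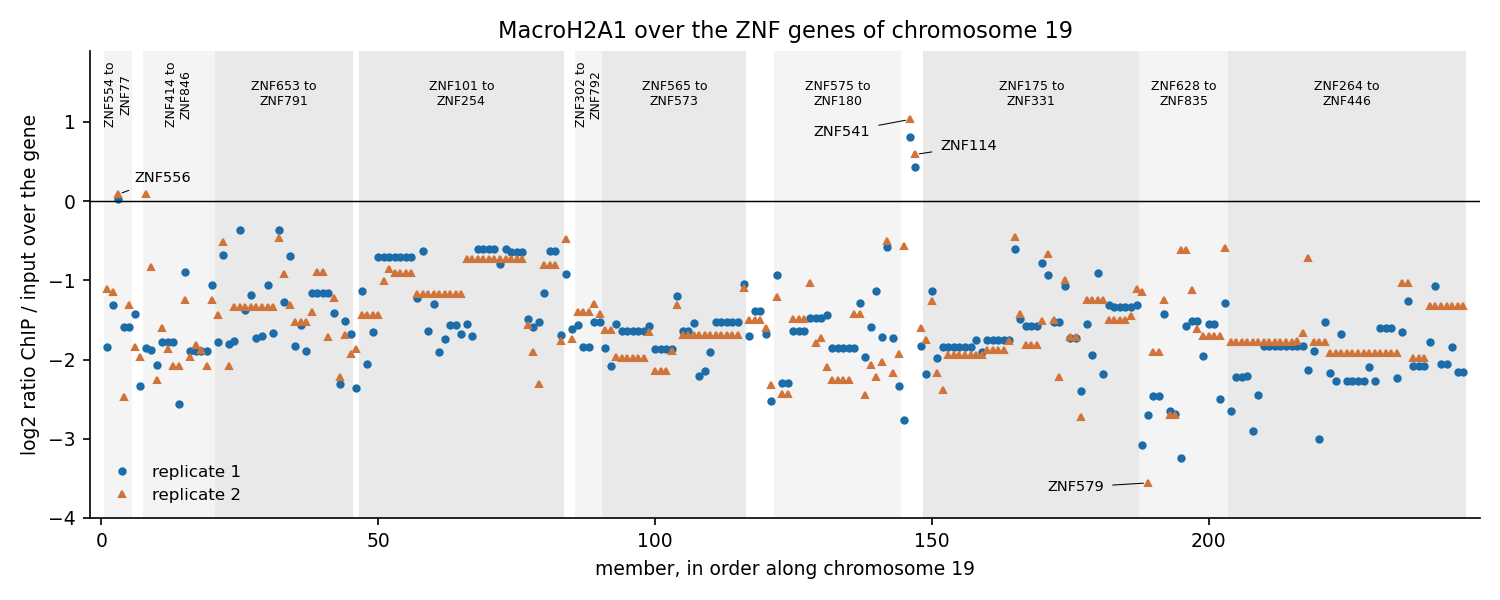
Log2 ratio of ChIP over input (y axis) over each of the 246 ZNF genes in their order along chromosome 19 (x axis), with replicate 1 as circles and replicate 2 as triangles, and shaded bands for the 10 clusters of at least 5 genes. Nearly all points lie below 0, ZNF541, ZNF114 and ZNF556 lie above it in both replicates, and runs of neighbours share one value.

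The extremes of the family are shown by the 250 bases upstream of the RefSeq start site of 4 genes, the 2 highest and the 2 lowest with an entry in the RefSeq promoter table (build GRCh38.p14). Each 250-base stretch was found once and without mismatch in GRCh37. They lie on the minus strand at chr19:48076406-48076655 for ZNF541, on the plus strand at chr19:2867083-2867332 for ZNF556, on the plus strand at chr19:56154765-56155014 for ZNF581 and on the minus strand at chr19:56092215-56092464 for ZNF579. The stretch of ZNF581 lies inside its GENCODE span (chr19:56146825-56156989), since RefSeq and GENCODE place its start differently. Capitals mark CG pairs, which read the same on both strands.
ZNF541: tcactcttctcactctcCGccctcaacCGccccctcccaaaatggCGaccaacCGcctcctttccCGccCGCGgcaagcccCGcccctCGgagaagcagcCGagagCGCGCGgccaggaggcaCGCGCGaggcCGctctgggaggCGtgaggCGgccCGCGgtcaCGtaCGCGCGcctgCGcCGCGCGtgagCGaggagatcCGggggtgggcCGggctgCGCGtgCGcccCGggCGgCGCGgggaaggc
ZNF556: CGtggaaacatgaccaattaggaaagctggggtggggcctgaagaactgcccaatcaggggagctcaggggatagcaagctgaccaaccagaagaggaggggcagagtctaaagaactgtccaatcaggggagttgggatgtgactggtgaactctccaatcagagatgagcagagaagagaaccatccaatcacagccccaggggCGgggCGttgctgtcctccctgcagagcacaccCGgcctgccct
ZNF581: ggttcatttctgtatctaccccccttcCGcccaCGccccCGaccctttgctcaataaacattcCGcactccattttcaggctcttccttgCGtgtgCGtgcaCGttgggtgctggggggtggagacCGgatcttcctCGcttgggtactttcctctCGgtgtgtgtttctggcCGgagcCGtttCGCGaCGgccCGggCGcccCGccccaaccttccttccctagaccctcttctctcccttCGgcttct
ZNF579: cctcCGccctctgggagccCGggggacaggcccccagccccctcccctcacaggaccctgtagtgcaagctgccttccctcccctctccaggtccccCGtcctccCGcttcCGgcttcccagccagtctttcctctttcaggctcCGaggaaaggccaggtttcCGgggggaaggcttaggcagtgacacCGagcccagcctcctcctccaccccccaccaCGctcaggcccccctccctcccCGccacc
The log2 ratio over these bases was 1.05 and 1.03 in replicates 1 and 2 for ZNF541, -0.83 and 0.09 for ZNF556, -2.94 and -2.70 for ZNF581, and -2.70 and -3.56 for ZNF579. The stretch upstream of ZNF541, the highest gene, held 39 CG pairs, that of ZNF556 held 4, that of ZNF581 held 19 and that of ZNF579 held 10. CG number therefore did not order these 4 genes by macroH2A1. Over 300 bases, which add 50 bases downstream of the start, a CG pair was present in all 216 ZNF promoters with an entry and in 98.1% of 14971 promoters of the table. The median number was 20 in the ZNF promoters and 22 in the table.

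The genes with enrichment stood mostly outside the clusters. ZNF541, a germ cell protein that acts in meiosis, had a log2 ratio of 0.81 in replicate 1 and 1.03 in replicate 2 (0.92 ± 0.15, SD, n = 2). Its 52.5 kb were enriched over 100% in both replicates, and it ranked at the 95.8th percentile of all measured genes. ZNF114 had 0.43 and 0.59 (0.51 ± 0.11) and was also covered over 100%. Both genes stand alone, with no other ZNF gene of the set within 500 kb. ZNF556 had 0.03 and 0.09 (0.06 ± 0.04). It was enriched over 61.4% of its bases in replicate 1 and over none in replicate 2, so its covered share was 0%. These 3 genes were the ones above 0 in both replicates.

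ZNF627 held the one enriched stretch inside a cluster that touched a ZNF gene. Its covered share was 29.3%, with 28.8% enriched in replicate 1 and 57.4% in replicate 2, and its whole-gene log2 ratio was -0.68 and -0.51. The stretch ran over 17.2 kb (chr19:11689709-11706908) and also overlapped ACP5, the gene of tartrate-resistant acid phosphatase. The segments inside ZNF627 ran from -2.75 to 0.49 in replicate 1 and from -1.96 to 0.51 in replicate 2, the widest range of the 246 genes as a mean of both replicates. In replicate 1 alone ZNF331 had a wider one, from -1.36 to 1.95. ZNF536, a repressor of neuronal differentiation and at 489 kb the longest of the 246, had a covered share of 1.20% and a log2 ratio of -0.92 and -0.47. It is named here, like ZNF507, ZNF473, ZNF526 and ZNF580 below, after its values had been seen.

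At the lower end, ZNF579 had -2.70 and -3.56 (-3.13 ± 0.61), and ZNF581 had -2.69 and -2.70 (-2.69 ± 0.01). ZNF580, beside ZNF581, had -2.66 and -2.70. These 3 genes lie close together in the cluster from ZNF628 to ZNF835. ZNF160 had -2.40 and -2.73, and ZNF526 had -2.52 and -2.32. The replicates placed all 5 genes below -2.

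Other genes of chromosome 19 spread far more widely. Their median was -1.17 and -0.95 in the replicates (-1.09 ± 0.16, SD of the replicate medians, n = 2, over 1225 genes), which is 0.56 above the ZNF genes of the chromosome. The difference was larger than the spread between replicates, at -0.47 in replicate 1 and -0.68 in replicate 2. The interquartile range of these genes spanned 2.16 log2 units, against 0.55 for the ZNF genes. A covered share of at least 50% was found in 235 of the 1225. Among them the 113 genes that lie inside the ZNF clusters had medians of -1.20 and -1.21 in the replicates, and 3 were covered. The 1112 genes outside the clusters had -1.04 ± 0.19, and 232 were covered. As genes share segments and are not replicates, and the series has no second condition, no test between samples could be made for these differences.

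ZNF genes elsewhere in the genome were also low. The 261 such genes on other chromosomes had a median of -1.61 and -1.48 (-1.53 ± 0.09). The difference from chromosome 19, with the genes of chromosome X kept in, was -0.13, with -0.04 in replicate 1 and -0.16 in replicate 2. It was -0.22 in a 5-kb window at the start site and -0.42 for base-weighted means. Its size therefore depended on the replicate and on the measure. Their values were more spread, with an interquartile range of 1.21 log2 units, and 19 of the 261 were covered over at least 50%. The 12 ZNF genes of chromosome X stood apart at 0.37 and 0.52 (0.41 ± 0.11), with 9 of 12 covered, against 19.2% of all measured genes. The other genes of chromosome X were not summarised as a set, so this level cannot be called particular to its ZNF genes. On the other autosomes the median of 249 genes was -1.58 ± 0.09, and 10 were covered. The autosomal medians were -1.65 in replicate 1 and -1.53 in replicate 2, against -1.65 and -1.64 for the ZNF genes of chromosome 19. Without chromosome X the 2 sets were thus alike in replicate 1. The highest of all was ZNF683 on chromosome 1, also called Hobit and known from resident T cells, at 1.34 ± 0.08.

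**Figure D2:**
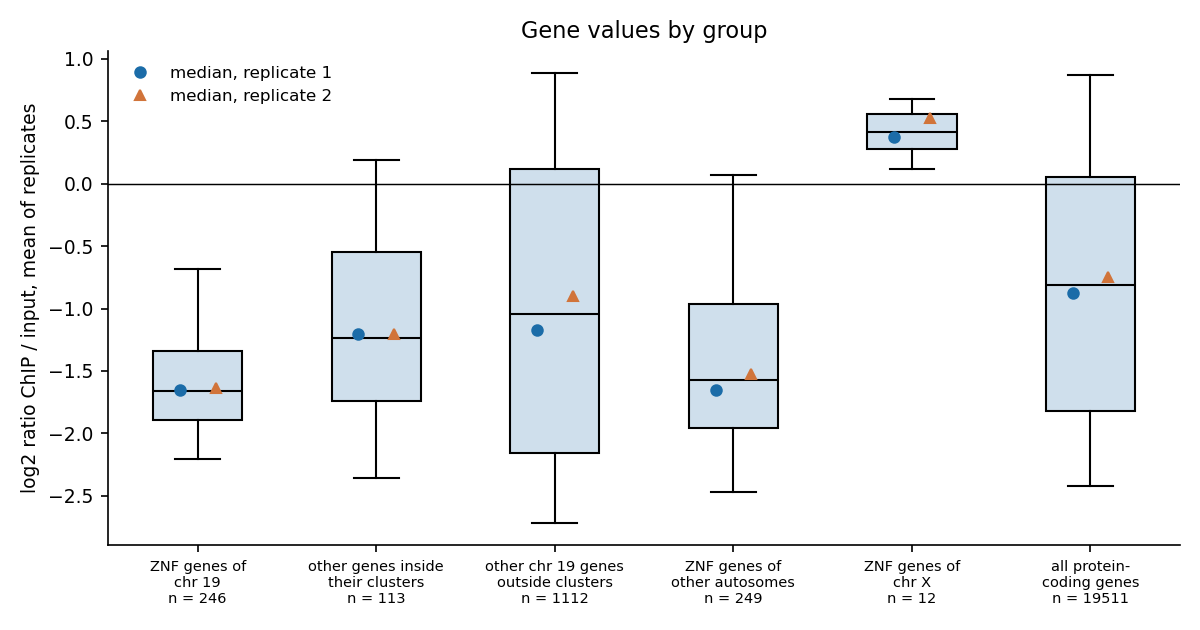
Log2 ratio per gene, mean of the 2 replicates (y axis), for 6 sets of genes (x axis), with the median as a line, the interquartile range as a box, the 5th to 95th percentile as whiskers and the median of each replicate as a circle or triangle. The ZNF genes of chromosome 19 have a median of -1.66 and the narrowest box of the autosomal sets, and the 12 ZNF genes of chromosome X lie above 0.

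Neighbours within 500 kb formed 20 groups. Of these, 10 clusters of at least 5 genes held 232 of the 246 genes, 3 groups of 2 to 4 held 7, and 7 genes stood alone. None of the 232 cluster genes was covered over at least 50%. The genes alone included ZNF541 and ZNF114, and also ZNF333 at -2.36 and -1.87, ZNF507 at -1.62 and -1.74, and ZNF473, which acts in histone RNA processing, at -1.83 and -1.60.

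The cluster with the highest median over its genes lies beside the centromere. It runs from ZNF101 to ZNF254 over 4533 kb (chr19:19779605-24312770) and ends close to the 3.1-Mb centromere gap of the build. Its 37 genes had a median of -0.80 and -0.91 in the replicates (-0.98 for the mean of the replicates, with an SD of the replicate medians of 0.08, n = 2). The other 209 genes had a median of -1.72 ± 0.04. The segments holding most of each of the 37 genes numbered 23 in replicate 1 and 9 in replicate 2. With each replicate 1 segment counted once the cluster median was -1.29, against -1.48 from ZNF175 to ZNF331 and -1.50 from ZNF653 to ZNF791. Over its whole span it had -0.94 ± 0.04, below the -0.88 ± 0.10 from ZNF302 to ZNF792. No base of the cluster beside the centromere was enriched in both replicates, so its genes were less depleted and yet not enriched. ZNF208, ZNF257, ZNF676 and ZNF729 shared the highest value, -0.60 and -0.72. The lowest were ZNF91, known to repress SVA retrotransposons, at -1.52 and -2.31, and ZNF14 at -2.06 and -1.44. ZNF93, known to repress LINE-1 elements and named after its values had been seen, had a mean of -0.85 ± 0.22, with 22.9% of its bases enriched in replicate 2 and none in replicate 1. GC content in this cluster was a median of 39.2% over its genes, against 43.6% over all 246. How uniquely reads map in this repeat-rich stretch was not tested.

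Along the short arm the other clusters were lower. The small cluster from ZNF554 to ZNF77 (chr19:2819866-2944969, 5 genes) had a median of -1.45 ± 0.31 and held both ZNF556, above 0, and ZNF57, at -1.59 and -2.47. From ZNF414 to ZNF846 (chr19:8574562-9903856) 13 genes had -1.86 ± 0.01. ZNF266 was lowest there at -2.56 and -2.08, and ZNF317 had -2.07 and -2.26. ZNF414 was split between replicates at -1.85 and 0.10. The 25 genes from ZNF653 to ZNF791 (chr19:11594242-12750912) had -1.44 ± 0.06. In that cluster ZNF878 was highest at -0.36 and -0.47, with enriched sequence 0.514 kb away, and ZNF564 lowest at -2.31 and -2.22.

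Past the centromere the cluster medians lay between -1.48 and -1.88. The 5 genes from ZNF302 to ZNF792 (chr19:35168544-35455133) had -1.48 ± 0.11 and hardly differed among themselves, from -1.63 for ZNF181 to -1.41 for ZNF30. The 26 genes from ZNF565 to ZNF573 (chr19:36673178-38307940) had a median of -1.78, with -1.64 and -1.69 in the replicates, and all 26 were below -1 in both. ZNF790, ZNF345 and ZNF829 shared the lowest values there, -1.87 and -2.15. ZNF573 had -1.05 and -1.10, and ZNF420, a KRAB protein known as a regulator of p53, had -1.20 and -1.31. From ZNF575 to ZNF180 (chr19:44029649-45004576) 23 genes had -1.77 ± 0.27. ZNF285 was highest in that cluster at -0.58 and -0.50, and ZNF576 and ZNF428 lowest at -2.30 and -2.44 each. ZNF428 was also the member with the fewest fingers, 1.

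The last 3 clusters lie toward the end of the long arm. The 39 genes from ZNF175 to ZNF331 (chr19:52074536-54083523) had -1.72 ± 0.02, with ZNF534 at -0.60 and -0.46 and ZNF160 lowest. ZNF331, an imprinted gene, had -1.31 and -1.11, and 1.26% of its bases were enriched in replicate 1 only. From ZNF628 to ZNF835 (chr19:55987984-57183151) 16 genes had -1.88 ± 0.36, the widest gap between replicate medians of the 10 clusters. The 43 genes from ZNF264 to ZNF446 (chr19:57702868-58992597) had -1.81 ± 0.21, and 42 of them were below -1 in both replicates. No base of this cluster was enriched in both replicates. ZNF134 and ZNF304, a KRAB protein linked to silencing of tumour suppressor genes, were lowest in it at -3.00 and -1.78 and at -2.90 and -1.78. ZNF329 was highest at -1.27 and -1.04. ZNF274, which brings SETDB1 to the ends of other ZNF genes, had -2.08 and -1.98.

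Neighbouring genes often lay in one segment. The segment holding most of a gene was one of 145 distinct segments in replicate 1 and one of 97 in replicate 2. It was shared with another ZNF gene for 148 of 246 genes in replicate 1 and for 193 in replicate 2. The segment with the most genes held 8 in replicate 1 (ZNF548 to ZNF550) and 14 in replicate 2 (ZNF264 to ZNF550, 369.9 kb). Equal values of neighbours are therefore 1 measurement. The median segment of chromosome 19 was 17.7 kb long in replicate 1 and 29.3 kb in replicate 2, and the median ZNF gene was 25.8 kb long. Counting each replicate 1 segment once gave a median of -1.60.

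The replicates ordered the ZNF genes less closely than other genes. Over the 246 genes Pearson's r between replicates was 0.64 and Spearman's rho 0.58, against 0.92 and 0.91 over the other 1225 genes of the chromosome. These are descriptions across genes that share segments, and the ZNF values fill a narrower range. The 5 genes with the largest gaps were ZNF787 (-3.25 and -0.62), ZNF296 (-2.76 and -0.57), ZNF414, ZNF628 (-3.07 and -1.15) and ZNF416 (-2.13 and -0.72). All 5 were lower in replicate 1, while over the whole set 125 of 246 genes were lower there. For the 5 genes the level is not settled by 2 replicates.

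Within the clusters, macroH2A1 was lower over the ZNF genes than between genes. Over all 10 clusters the bases of ZNF genes had a mean log2 ratio of -1.52 and -1.48 (-1.50 ± 0.03, SD, n = 2). Other protein-coding genes in the clusters had -1.13 and -1.08 (-1.11 ± 0.04), and bases outside protein-coding genes had -0.81 and -0.87 (-0.84 ± 0.04). The ZNF bases were lower than the bases between genes in both replicates in 10 of 10 clusters. The gap was widest from ZNF575 to ZNF180 (-1.75 ± 0.12 against -0.63 ± 0.07) and narrowest in the cluster beside the centromere (-1.11 ± 0.03 against -0.82 ± 0.08). From ZNF565 to ZNF573 and from ZNF264 to ZNF446 the bases between genes were low as well, at -1.35 ± 0.18 and -1.41 ± 0.03. Lower values over genes than beside them were not particular to the ZNF genes. Over all protein-coding genes the median was -0.82, and that of the 20 kb upstream was -0.16. For the ZNF genes these medians were -1.66 and -1.26. Bases of genes and between genes were not compared outside the clusters.

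**Figure D3:**
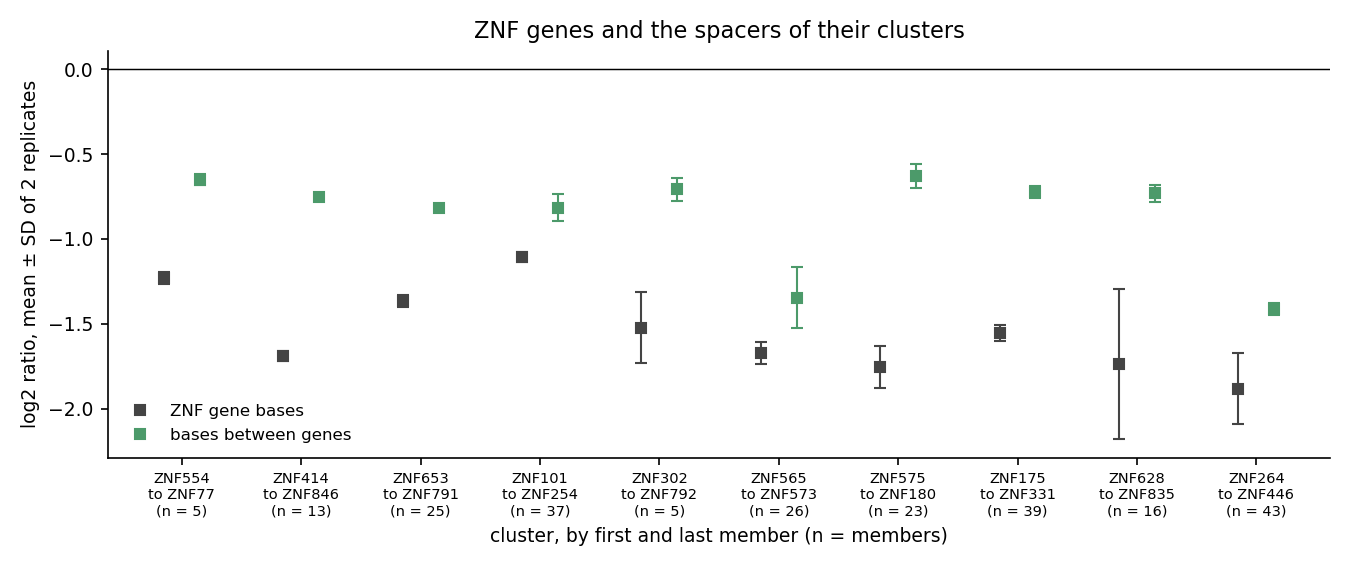
Mean log2 ratio (y axis) over the bases of ZNF genes (dark squares) and over bases outside protein-coding genes (green squares) in each of the 10 clusters (x axis, named by first and last gene), with error bars for the SD of 2 replicates. The dark square is the lower of each pair, by the least in the cluster from ZNF101 to ZNF254.

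Gene by gene, against 20 kb of flank, the contrast was not seen in most genes. The gene was lower than the 20 kb upstream of its start in both replicates for 70 of 246 ZNF genes, or 28.5%, against 41.4% of all measured genes. It was higher for 15, or 6.1%, against 15.4% of all measured genes and 21.8% of the other genes of chromosome 19. Gene and flank were equal in both replicates for 72 of 246, against 3959 of 19507 over all genes. The median difference for the ZNF genes was 0 in each replicate. Downstream the gene was lower than 20 kb of flank for 42, or 17.1%, against 36.6% of all genes. Among the other genes of chromosome 19 the shares were 36.2% and 34.9%. By this count the ZNF genes of chromosome 19 lay below their flanks less often than these sets, and also above them less often. The smaller share below is therefore not a sign of the opposite contrast, and no test was made for these differences. The 261 ZNF genes of other chromosomes were lower than their upstream flank in 130 cases, or 49.8%.

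Averaged over the 246 genes, the profile stepped down at the start site. The mean was -1.09 and -1.18 in the 4 kb upstream of the start and -1.62 and -1.49 in the first of 10 equal bins of the gene. It stayed between -1.64 and -1.48 through the gene in both replicates, and came back to -1.47 and -1.45 in the 4 kb after the end and to -1.31 and -1.35 at 20 kb. The return was therefore slower at the 3′ end than the step at the start. As counted above, only 70 of the 246 genes lay below their upstream 20 kb in both replicates. No profile of other genes was made, so the step cannot be called particular to the ZNF genes.

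**Figure D4:**
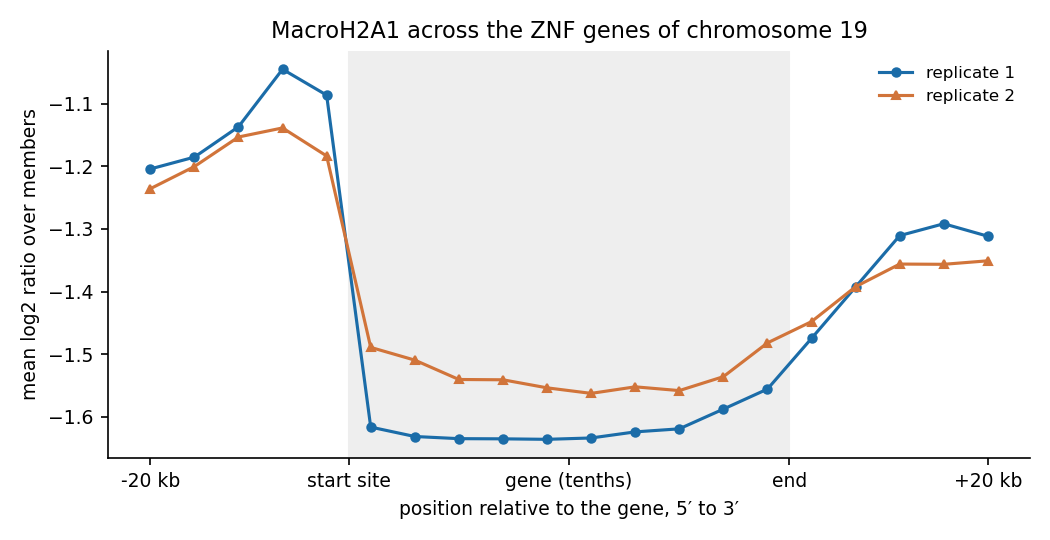
Mean log2 ratio over the 246 ZNF genes (y axis) from 20 kb upstream of the start site, through the gene in 10 equal bins (shaded), to 20 kb downstream of its end (x axis, 5′ to 3′), with replicate 1 as circles and replicate 2 as triangles. Both replicates fall at the start site, to -1.62 and -1.49 in the first bin of the gene, and rise gradually after the end.

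Pooled, the 10 clusters were low against the rest of chromosome 19. Of their 13948 assayed kb, 237.7 kb were enriched in both replicates, while the rest of chromosome 19 was enriched over 27.5%. The mean log2 ratio was -1.19 in both replicates inside and -0.62 ± 0.12 outside (SD, n = 2). Across the 20 cluster ends, the mean share of enriched bases was 29.0% and 32.9% at 50 to 100 kb outside. It was 19.6% and 19.3% in the last 50 kb outside, and 1.88% and 0.664% in the first 50 kb inside. The mean log2 ratio went from -0.59 and -0.40 to -1.02 and -0.85, and then to -1.41 and -1.32. Deeper inside, the share was 8.43% and 10.2% at 50 to 100 kb and 10.7% and 13.1% at 150 to 200 kb. Farther outside the mean log2 ratio varied, and at 450 to 500 kb it was -1.14 and -0.99, near the values inside. A cluster end is by definition the outer end of a ZNF gene, so the first 50 kb inside always hold part of one. Some ends were flanked by high sequence: the 100 kb after ZNF77 had 0.82 ± 0.14, and the 100 kb after ZNF180 had 0.69 ± 0.04. Others were flanked by sequence lower than the cluster. The 100 kb before ZNF554 had -1.81 ± 0.15, against -1.03 ± 0.03 over the span from ZNF554 to ZNF77. The span from ZNF414 to ZNF846 had -0.96 ± 0.04, above the 100 kb before it (-1.18 ± 0.20) and after it (-1.25 ± 0.23). The contrast therefore did not hold cluster by cluster.

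**Figure D5:**
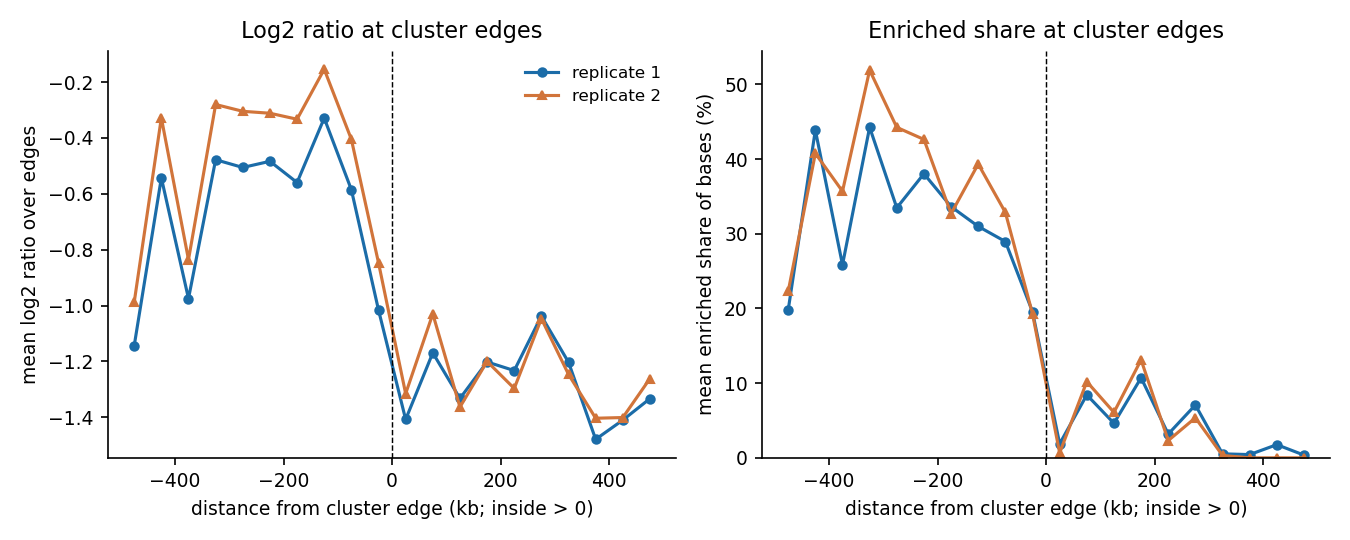
Mean log2 ratio (left, y axis) and mean share of enriched bases in percent (right, y axis) in bins of 50 kb around the ends of the 10 clusters (x axis, distance in kb, inside above 0), over 14 to 20 ends per bin, with replicate 1 as circles and replicate 2 as triangles. The enriched share drops from 19.6% and 19.3% in the last bin outside to 1.88% and 0.664% in the first bin inside.

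The little enriched sequence inside the clusters lay over other genes or between genes. It formed 12 domains in 5 clusters after pieces within 1 kb were joined, 238 kb in all, and 1 of the 12 touched a ZNF gene, ZNF627. The longest, of 47.8 kb (chr19:56035559-56083381), held the kinase genes SBK2 and SBK3 at 0.93 ± 0.21. It ended 4.76 kb from ZNF579, the lowest of the 246 genes. A domain of 40.4 kb (chr19:44262169-44302545) overlapped KCNN4, a calcium-activated potassium channel, and LYPD5 at 1.00 ± 0.23, and one of 45.4 kb overlapped IRGC, an immunity-related GTPase, at 0.72 ± 0.41. SBK2, SBK3 and KCNN4 were the 3 covered genes among the 113 other genes inside the clusters.

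Related zinc finger genes of chromosome 19 with other symbols were less low than the ZNF genes. The list held 18 measured genes named ZFP, ZSCAN, ZBTB, ZIM, ZIK1 or PEG3, with a median of -1.31 and -1.04 (-1.19 ± 0.19). This was nearer to the other genes of chromosome 19 (-1.09) than to the ZNF genes (-1.66). The log2 ratio was below -1 in both replicates for 55.6% of them, against 48.3% of the other genes and 80.5% of the ZNF genes. None of the 18 was covered over at least 50%, against 16.1% of the measured genes of chromosome 19. Any covered base was found in 1, ZBTB45 at 17.6%, against 22.7% on chromosome 19. They ran from -2.69 for ZBTB7A, a regulator of blood cell fate, to 0.10 for ZSCAN4, a gene of early embryos and telomere maintenance, at -0.04 and 0.24. The imprinted genes PEG3 and ZIM2 shared -0.92 and -0.59.

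Genes of the KRAB silencing machinery were low as well. Of 29 listed symbols 26 were measured, one of them ZNF274 itself, with a median of -2.05 and -1.98 (-2.03 ± 0.05). None was covered over at least 50%, against 19.2% of all measured genes. The log2 ratio was below -1 in both replicates for 23 of the 26, against 42.3% of all measured genes. TRIM28, the partner of KRAB domains, had -3.07 and -2.32, and SETDB1, the methyltransferase, -2.47 and -2.73. MORC2 and TASOR, which act in HUSH silencing, had -2.36 ± 0.01 and -2.25 ± 0.07. HDAC2 held the largest covered share of the list, 36.7%, at -0.75 and -0.95. ATRX and SUV39H1, both on chromosome X, had 0.50 and 0.08, and -0.46 and 0.51. These are values of the DNA at those genes and say nothing of their expression.

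Correlations of sequence features with macroH2A1 over the genes were weak and depended on the replicate. A finger was counted as a match to the spacing of its cysteines and histidines in the longest coding sequence, which could be read in frame for 245 of 246 genes. The genes had a median of 12 fingers, from 1 in ZNF428 to 36 in ZNF208. Spearman's rho between finger number and log2 ratio was 0.05 (n = 245). With GC content of the gene rho was -0.25 (n = 246), with -0.36 in replicate 1 and -0.08 in replicate 2. With gene length it was 0.24 (0.29 and 0.15), and with CG pairs of the promoter -0.27 (n = 216, -0.32 and -0.15). Without the cluster beside the centromere rho with GC content was -0.06 and turned sign between replicates, at -0.24 and 0.16. With CG pairs it was -0.07 and turned sign as well, at -0.18 and 0.07, and with length it was 0.12 (0.22 and 0.02). With distance from the centromere gap, which is place and not sequence, rho was -0.40 (n = 246, -0.42 and -0.27). Without the cluster beside the centromere it was -0.20 (-0.28 and -0.04). That cluster held 32 of the 82 genes with the lowest GC content and 24 of the 82 longest. These are descriptions over genes that share segments.

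Genes with and without a match to a short KRAB motif overlapped widely in macroH2A1. The motif, a spacing of conserved residues near the start of the domain, was found in 185 genes with a median of -1.64 and -1.57 (-1.63 ± 0.05). The 60 genes without it had -1.83 and -1.71 (-1.80 ± 0.09). Of the 10 genes below -2 in both replicates, 8 lacked the motif, among them ZNF579, ZNF580, ZNF581, ZNF576 and ZNF428. These are not separate cases: ZNF576 and ZNF428 lie in the same segments and are 1 measurement. ZNF579, ZNF580 and ZNF581 lie in the cluster from ZNF628 to ZNF835, where 5 of 16 genes had the motif, so motif and place cannot be told apart there. Of the 2 covered genes ZNF114 had the motif and ZNF541 did not. Outside the cluster beside the centromere the medians were -1.69 ± 0.01 and -1.81 ± 0.07. The pattern was widened once after its first result had been seen, and the first form gave 168 genes at -1.61 and 77 at -1.80. A gene without a match can still encode a KRAB domain, and how many such genes were missed was not checked.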

How the data were processed

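ChIP and input DNA from IMR90 were sequenced. The submitters' processing notes name CASAVA 1.7 and build hg19. Aligner, segmentation program and handling of reads that map to several places: not given in the sources used here. Near-identical ZNF copies are a limit whose effect was not tested. The authors deposited a log2 ratio of ChIP over input per segment, relative within a library. Base 2 was inferred, since powers of 2 averaged 1.01 and 0.995. The deposited −log10 p served only to call segments enriched. Depth is unknown.

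Gene spans came from GENCODE release 44 on GRCh37, without 3 ZNF read-through models. Gene values were base-weighted means over segment blocks (Python 3.11.15, numpy 2.4.6, pandas 2.3.3), and errors are the SD over 2 replicates. The interval functions were tested on simulated data, with 0 mismatches in 300 intervals. The alternatives were each replicate alone, a 5-kb window at the start site, whole segments, other thresholds and joining distances, segments counted once and base weighting.

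The genes and lists were chosen with earlier results of these data known. The closer look at the cluster beside the centromere, bases between genes, 20-kb flanks and the KRAB motif followed a look at the values. The motif was phenylalanine, any residue, aspartate, valine, 3 residues, phenylalanine, 3 residues, glutamate and tryptophan. It was widened to allow leucine in the last place after few genes of 1 cluster had matched, with both medians seen. Named genes were the 2 highest and 2 lowest of each cluster, with some genes of equal value, and all covered genes. Also named were the 5 with the largest gap between replicates or the widest range inside the gene, with some given by counts only. The coding sequence of ZNF274 did not read in frame in the lifted annotation and was left out of finger and motif counts.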

Additional observations from a re-analysis of the deposited data

How the results depend on the processing

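No median, difference or count changed sign under the alternatives run. The correlations with GC content and with promoter CG pairs outside the cluster beside the centromere, -0.06 and -0.07, ran from -0.24 to 0.16 and from -0.175 to 0.0712 with 1 replicate left out. Leaving out 1 replicate gave a median of -1.65 to -1.64 over the ZNF genes, a mean covered share of 1.18% to 1.39%, a difference from ZNF genes elsewhere of -0.16 to -0.0403, and a median over clusters of -1.69 to -1.64 against -1.74. In a 5-kb window at the start site these 4 values were -1.42, 1.76%, -0.22 and -1.41. Base weighting gave -1.45, 1.22%, -0.42 and -1.63, and a difference from other genes of chromosome 19 of -0.40 in place of -0.56. With each replicate 1 segment counted once the median was -1.60, the mean covered share 1.59%, and 112 of 145 segments lay below -1 in both replicates. The covered genes numbered 1 with a log2 ratio over 0.5, at a mean covered share of 0.407%, and 4 with any base covered. Joining neighbours within 250 kb gave a median over clusters of -1.67. Without the cluster beside the centromere, an alternative chosen after seeing the data, the median was -1.72 and the mean covered share 1.10%. Either replicate alone gave 3 covered genes in place of 2. The other medians over all ZNF genes or all clusters, differences and shares moved by less than the spread between replicates, and the other counts by less than 1.5 times. Medians of single clusters moved by more than the spread in 23 recomputations and by less in 74. No paired analysis was possible because the inputs have no values of their own here and enter only through the ratio of each ChIP replicate. With 2 replicates and unknown depth, a difference of the size seen between ZNF genes of chromosome 19 and those elsewhere could not be told from replicate spread.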
